A study of Homo sapiens with 9 samples.

Results

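The 9 genes described here carry the luminal identity of breast epithelium: the hormone receptors ESR1 and PGR, the receptor tyrosine kinases ERBB2 and ERBB3, the transcription factors GATA3, FOXA1, SPDEF and XBP1, and TFF1, a secreted trefoil peptide and classical estrogen target. They were taken by name, as 9 of the 20007 protein-coding genes with a canonical transcript in the GENCODE annotation. Open chromatin was mapped by ATAC-seq, in which the Tn5 transposase cuts open DNA, in 9 libraries of MDA-MB-231, a mesenchymal triple-negative breast cancer line that was derived from a metastasis and lacks estrogen receptor, progesterone receptor and ERBB2 amplification. Cells received a lentiviral control shRNA (shCtrl, 2 libraries), an shRNA against EZH2 (shEZH2, 2 libraries), E2F1 (shE2F1, 2 libraries) or SUZ12 (shSUZ12, 1 library), with 24 h of transduction and 72 h of selection in 2 μg/ml puromycin. The remaining libraries came from cells given the solvent DMSO or GSK126, an inhibitor of the EZH2 methyltransferase, with 1 library each. All libraries are of the same cell line, no label ties a replicate to a separate culture, and accessibility does not itself show how far each target was depleted. The question addressed was which of the 9 promoters were open, and whether loss of Polycomb repressive complex 2 (PRC2) through shEZH2, shSUZ12 or GSK126, or knockdown of E2F1, opened any of them.

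ESR1 and PGR are nuclear receptors that bind DNA when given estrogen or progesterone. FOXA1 is a pioneer factor that opens chromatin for the estrogen receptor, and GATA3 acts with both in a mutually reinforcing circuit of luminal cells. EZH2 and SUZ12 are core subunits of PRC2, which methylates histone H3 at lysine 27 and keeps many lineage genes silent in cells that do not use them. E2F1 is a cell cycle transcription factor.

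A promoter was taken as the 1000 bp on either side of the canonical transcription start site (TSS), and was called open in a library whose peak list held a peak there. Peak height was read as a percentile, the share of the peaks of the same list with an equal or lower fold enrichment, because fold enrichment depends on depth. The percentile in turn depends on list length, because more weak peaks in a list raise the rank of a tall one. Heights were therefore also ranked in lists cut to equal length. The lists held 58626 (second shEZH2 library) to 85812 peaks (second shE2F1 library). The most frequent local background recovered from them, which follows depth, ran from 1.41 to 2.18 tags in the same libraries, and the weakest peak in any list rested on 8 tags. The promoters of VIM, CD44, AXL, CAV1, MSN, FOSL1 and ZEB1, 7 markers of the line, had a peak in every library. These 7 are part of a list of 19 basal and mesenchymal genes described below. In that list 14 promoters were open throughout and 5 were closed throughout. Among all protein-coding genes, 60.1% of promoters were open throughout. With 2 libraries against 2 the smallest exact two-sided p is 0.333, and single libraries give none, so no test was run on any comparison and differences are described by whether groups overlap.

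RefSeq promoter sequences starting at the canonical TSS were matched for 6 of the 9 genes (ESR1, PGR, GATA3, FOXA1, XBP1 and SPDEF). The stretches of GRCh38 sequence upstream of GATA3, which had no promoter peak in any library, and of XBP1, which had one in every library, are shown without any annotated exon, and CpG dinucleotides are in capitals. The GATA3 stretch is chr10:8054438-8054687 on the plus strand, from −250 to −1 of the TSS, and holds 26 CpGs in 250 bases. The XBP1 stretch is chr22:28800598-28800682 on the minus strand, from −113 to −29, and holds 15 CpGs in 85 bases.
GATA3 promoter: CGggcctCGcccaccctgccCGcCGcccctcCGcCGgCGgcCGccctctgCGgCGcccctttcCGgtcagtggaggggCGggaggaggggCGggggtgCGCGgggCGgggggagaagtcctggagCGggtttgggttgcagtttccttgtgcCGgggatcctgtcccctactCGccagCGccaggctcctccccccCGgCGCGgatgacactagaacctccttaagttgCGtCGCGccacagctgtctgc
XBP1 promoter: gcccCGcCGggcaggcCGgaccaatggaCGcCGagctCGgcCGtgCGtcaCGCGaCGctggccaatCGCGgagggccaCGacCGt

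Both promoters were CpG-rich. Over the 300 bases of the promoter table, 250 before and 50 after the TSS, the ratio of observed to expected CpGs was 0.804 for GATA3, 1.13 for XBP1, 0.966 for FOXA1, 0.666 for ESR1, 0.485 for PGR and 0.397 for SPDEF. The median was 0.865 over the 9191 matched promoters with a peak in every library and 0.304 over the 3950 with a peak in none. GATA3 thus had the base composition of a typical open promoter and no peak, whereas SPDEF and PGR were CpG-poor and had weak ones.

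Of the 9 promoters, 4 were open in all 9 libraries (ERBB2, ERBB3, TFF1 and XBP1), 4 were open in some (ESR1 in 8, PGR in 7, FOXA1 in 7 and SPDEF in 6), and GATA3 was open in none. Over all protein-coding genes, 60.1% of promoters were open in every library, 10.9% in some and 29.0% in none. Libraries had between 5 (first shE2F1 library) and 8 member promoters open. The library with 5 lacked ESR1, FOXA1 and SPDEF besides GATA3, and 64.1% of all promoters were open in it against 62.0% to 66.8% over the 9 libraries.

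**Figure D1:**
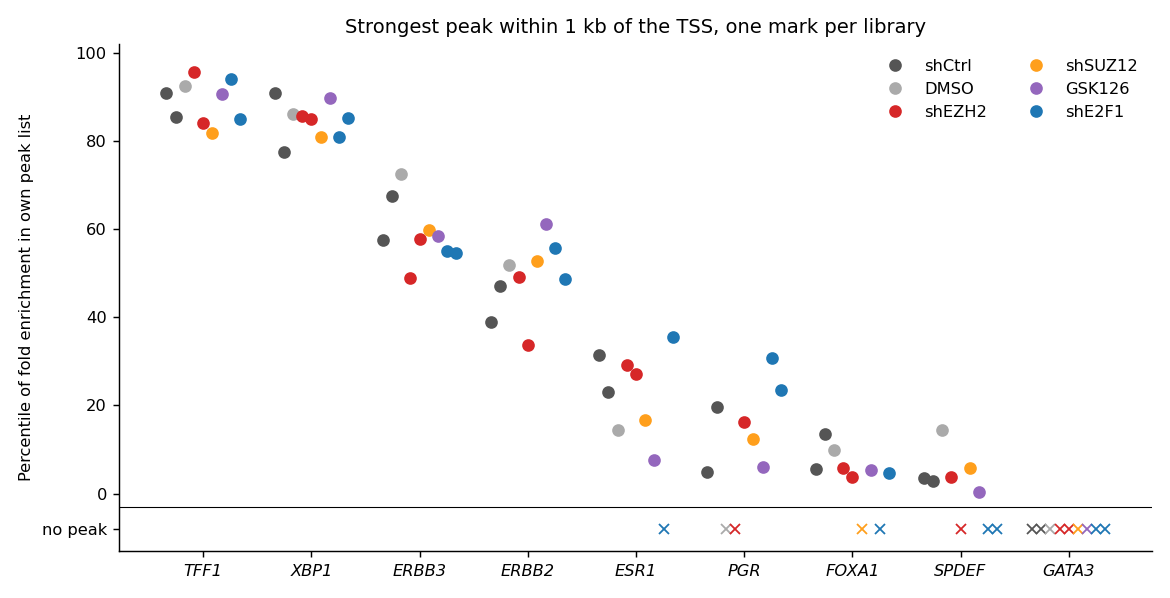
Percentile of fold enrichment of the strongest peak within 1000 bp of the TSS (y axis) for each gene (x axis), with 1 mark per library coloured by group and crosses for libraries without a peak. TFF1 and XBP1 lie between 77.5 and 95.6, the receptors ERBB2 and ERBB3 in the middle of the lists, the other open promoters below 36, and GATA3 has crosses only.

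Among the hormone receptors, ESR1 had a weak promoter peak. Its percentile was 31.5 and 23 in shCtrl, 14.5 in DMSO, 29.3 and 27.1 in shEZH2, 16.7 in shSUZ12, 7.58 in GSK126 and 35.6 in the second shE2F1 library, and the first shE2F1 library had no peak. The shEZH2 values lay within the range of shCtrl, the shSUZ12 value lay below both shCtrl libraries, and GSK126 lay 6.94 percentile points below DMSO. By −log10 q the shSUZ12 peak (8.42) lay above both shCtrl libraries (8.05 and 7.58). It held 24 tags over a local background of 4.56, against 2.30 and 2.82 in shCtrl, and its summit was at 744 bp, against 356 and 459 bp. The ESR1 peaks held 11 to 24 tags, and their summits lay between −5 and 824 bp of the TSS.

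The PGR promoter was weaker still, with 11 to 22 tags. Its percentile was 4.99 and 19.6 in shCtrl, 16.1 in the second shEZH2 library, 12.3 in shSUZ12, 6.0 in GSK126, and 30.7 and 23.5 in shE2F1, while DMSO and the first shEZH2 library had no peak. Both shE2F1 libraries were above both shCtrl libraries, by a mean of 14.8 percentile points (shE2F1 27.1 ± 5.09, shCtrl 12.3 ± 10.4, SD, n = 2). The strongest PGR peaks were at 2 sites that overlap the first exon, one with summits from 193 to 231 bp and one from 800 to 844 bp downstream of the TSS. The comparison of shE2F1 with shCtrl mixes these sites: at the nearer one the first shE2F1 library stood at 19.1 and the second shCtrl library at 19.6, and at the farther one the second shE2F1 library had no peak, so neither site alone had both shE2F1 libraries above shCtrl. In DMSO the nearest peak began 1282 bp from the TSS and in the first shEZH2 library 1148 bp from it, just outside the window.

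ERBB2, the HER2 receptor, and ERBB3, its partner with little kinase activity of its own, were open in every library. ERBB2 stood at 38.9 and 47.0 in shCtrl, 51.9 in DMSO, 49.2 and 33.7 in shEZH2, 52.8 in shSUZ12, 61.1 in GSK126, and 55.8 and 48.7 in shE2F1. Both shE2F1 libraries lay above shCtrl (52.3 ± 5.02 against 42.9 ± 5.76, SD, n = 2), and the shEZH2 libraries overlapped shCtrl. By fold enrichment itself the second shCtrl library (6.92) lay above both shE2F1 libraries (6.90 and 6.48). The summit used in the first shCtrl library was 763 bp downstream of the TSS, against −115 and 345 bp in shE2F1. ERBB3 stood at 57.4 and 67.4 in shCtrl, 72.4 in DMSO, 48.9 and 57.8 in shEZH2, 59.9 in shSUZ12, 58.4 in GSK126, and 54.9 and 54.6 in shE2F1. Here both shE2F1 libraries lay below shCtrl, with a difference of −7.66 percentile points, close to the SD of 7.04 between the shCtrl libraries. Among the 12023 promoters open in every library, ERBB2 and ERBB3 ranked low: 17.2% and 24.0% of those promoters had an equal or lower median percentile.

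TFF1 and XBP1 had the highest promoter peaks of the 9. TFF1 stood at 90.9 and 85.5 in shCtrl, 92.5 in DMSO, 95.6 and 84.0 in shEZH2, 81.8 in shSUZ12, 90.6 in GSK126, and 94.1 and 85.0 in shE2F1, with 45 to 108 tags. Its summit lay 286 to 362 bp upstream of the TSS in every library, and in 7 of the 9 libraries the peak stopped short of the TSS. XBP1, a factor of the unfolded protein response that is also a luminal marker, stood at 90.8 and 77.5 in shCtrl, 86.1 in DMSO, 85.6 and 85.0 in shEZH2, 80.9 in shSUZ12, 89.7 in GSK126, and 80.8 and 85.2 in shE2F1. Its summit lay 37 to 55 bp upstream of the TSS. For both genes the shEZH2 and shE2F1 libraries overlapped shCtrl, and their medians were at or above those of 75.0% (TFF1) and 62.6% (XBP1) of the promoters open in every library.

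FOXA1 and SPDEF, a prostate- and breast-derived ETS factor, had peaks of low fold enrichment over raised local backgrounds. FOXA1 peaks held 24 to 42 tags over local backgrounds of 5.86 to 9.40 tags, and SPDEF peaks 30 to 44 tags over 7.48 to 12.4, well above the most frequent background of any list. Such backgrounds were not particular to them: ERBB3 peaks held 44 to 103 tags over 5.60 to 10.7. The fold enrichment of FOXA1 was 3.43 to 4.25 and that of SPDEF 2.68 to 4.6. The FOXA1 percentile was 5.59 and 13.5 in shCtrl, 9.80 in DMSO, 5.91 and 3.66 in shEZH2, 5.25 in GSK126 and 4.69 in the second shE2F1 library, and shSUZ12 and the first shE2F1 library had no peak. The FOXA1 promoter region, chr14:37594251-37595192, is also within 1000 bp of the TSS of TTC6 on the opposite strand. SPDEF stood at 3.58 and 2.85 in shCtrl, 14.5 in DMSO, 3.83 in the first shEZH2 library, 5.81 in shSUZ12 and 0.433 in GSK126, with no peak in the second shEZH2 library or in either shE2F1 library. By percentile the SPDEF promoter was thus the faintest of the 8 open ones, although its median −log10 q (7.56) was above those of PGR (6.07) and ESR1 (7.39).

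GATA3 had no peak within 1000 bp of its TSS in any of the 9 libraries, and the nearest peak lay 3862 to 9337 bp away. Its locus was not closed. Of the 15 regions there, 5 had a peak in every library, including 2 within the GATA3 gene record, one 9438 bp upstream of the canonical TSS and one 15087 bp downstream of it. The upstream region, chr10:8044945-8046227, covers the first annotated start of the gene, so GATA3 counted as open in all 9 libraries when any annotated TSS was used.

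No member promoter was opened by shEZH2, shSUZ12 or shE2F1. GATA3 was the only one without a peak in both shCtrl libraries and so the only one that could be, and 0 of 1 was opened in each contrast, where 0.237% of all promoters closed in both shCtrl libraries were opened in both shEZH2 libraries, 2.72% in shSUZ12 and 0.616% in both shE2F1 libraries. Against DMSO, GATA3 and PGR could open in GSK126, and PGR did (1 of 2, background 2.51%), with a peak of 11 tags at percentile 6.0. The same region had a peak in each shCtrl library (4.99 and 7.52), and within 2000 bp of the TSS the PGR promoter had a peak in all 9 libraries. Across the 4 PRC2-loss libraries together (both shEZH2, shSUZ12 and GSK126), 0 of 1 member opened relative to shCtrl and DMSO, and 0% of all promoters did.

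Closing was as rare. FOXA1 was closed in shSUZ12 (1 of 8 members open in both shCtrl libraries, background 1.17%) and SPDEF in both shE2F1 libraries (1 of 8, background 0.899%). None of 8 was closed in both shEZH2 libraries (1.53%), 0 of 7 in GSK126 (2.86%) and 0 of 7 in the 4 PRC2-loss libraries (0.117%). By percentile, FOXA1 and SPDEF were the 2 lowest open promoters in shCtrl, with means of 9.56 and 3.21. The order was different by −log10 q. In shCtrl, FOXA1 (8.88 and 13.1) then lay above ESR1 (8.05 and 7.58) and PGR (3.47 and 8.42), and SPDEF stood at 7.44 and 6.25. The SPDEF peak was also missing from the second shEZH2 library, which had the fewest peaks.

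In height, none of the 6 members open in all 4 libraries of the contrast lay above shCtrl in both shEZH2 libraries (10.6% of all such promoters did) and none lay below (29.7%). In shE2F1, PGR and ERBB2 lay above shCtrl in both libraries (2 of 5, background 19.2%) and ERBB3 lay below (1 of 5, background 17%). With lists of equal length, 0 members lay above or below in shE2F1, and in shEZH2 1 lay above and 0 below. PGR then had a peak in only 2 libraries.

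**Figure D2:**
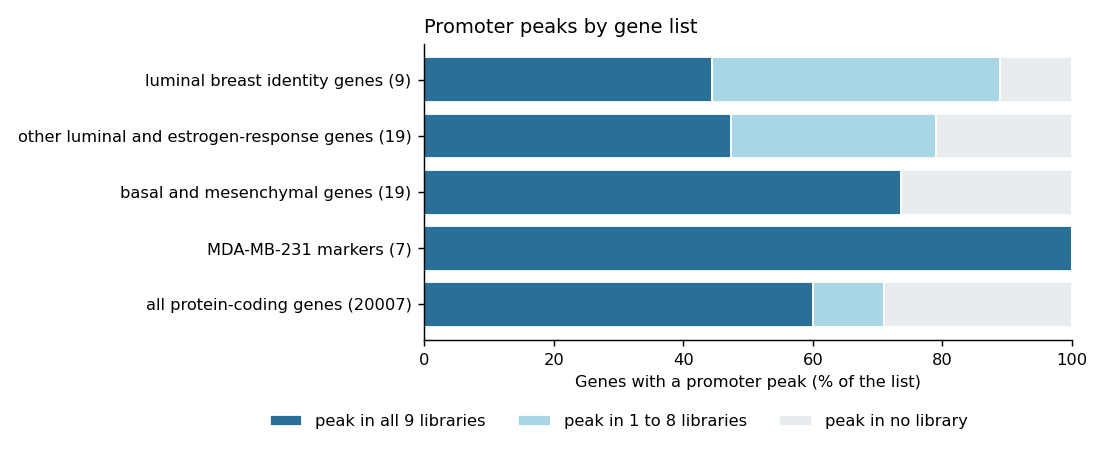
Share of genes (x axis, % of the list) with a promoter peak in all 9, in 1 to 8 or in no library, for the 9 luminal identity genes and the wider lists (number of genes in brackets). The members have 4, 4 and 1 genes in these classes and the basal and mesenchymal list 14, 0 and 5.

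The wider lists set these promoters in context. Of 19 other luminal and estrogen-response genes, 9 were open in every library, 6 in some and 4 in none. The 4 closed ones were the estrogen targets GREB1 and STC2, AGR3, and the transcription factor TFAP2B. Of 19 basal and mesenchymal genes, 14 were open in every library and 5 in none, namely the keratins KRT5, KRT14 and KRT17, the mesenchymal factor TWIST1 and N-cadherin CDH2. Promoters open in only some libraries were thus 4 of 9 members, 6 of 19 other luminal genes and 0 of 19 basal and mesenchymal genes, against 10.9% of all genes. Epithelial genes were not uniformly closed: SLC39A6, a zinc transporter induced by estrogen, had a median percentile of 88.9 and the epithelial adhesion gene EPCAM 75.8, both in all 9 libraries. In the wider luminal list only GSK126 against DMSO, with 1 library each, had promoters called. TFF3 was opened (1 of 5, background 2.51%) and AGR2 and NAT1 were closed (2 of 14, background 2.86%). AGR2 also had no peak in the second shEZH2 library and the first shE2F1 library. In every contrast 0 of 5 basal and mesenchymal promoters were opened and 0 of 14 closed, where the backgrounds were at most 2.72% and 2.86%.

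When peaks of the 9 libraries were merged into 118719 regions, 156 lay within the 9 genes or 100 kb of them. Of these, 53 (34.0%) had a peak in every library, against 34.2% of all regions. Regions in every library made up 5 of 8 at XBP1, 14 of 32 at ERBB3, 9 of 22 at SPDEF and 9 of 25 at ERBB2, but 4 of 21 at ESR1, 1 of 9 at PGR and 1 of 9 at FOXA1. PGR and FOXA1 thus had the smallest share of regions in every library. At PGR the only region with a peak in every library lay 200275 bp downstream of the TSS in an intron of ARHGAP42, with a median percentile of 37.6. At FOXA1 it lay 10791 bp downstream of the TSS, with a median of 18.3. The tallest FOXA1 region by median percentile (35.4, 28488 bp upstream in an intron of TTC6) had a peak only in GSK126 and the second shE2F1 library.

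SPDEF, GATA3 and ESR1 had weak or closed promoters and tall regions elsewhere in their loci. At SPDEF the tallest region, chr6:34629838-34630687, lay 73875 bp upstream in an intron of ILRUN, and its percentile was 87.3 to 99.3 over the 9 libraries, whereas the SPDEF promoter never exceeded 14.5. At GATA3 the tallest was 92158 bp downstream, chr10:8146078-8147064, outside the canonical transcripts of protein-coding genes, at 85.0 to 94.8. At ESR1 it was chr6:152095058-152095547, 287662 bp downstream in intron 7, the last of the canonical transcript, at 71.8 to 96.2. At TFF1, ERBB2, ERBB3 and XBP1 the tallest region was a promoter: their own at TFF1, that of PGAP3, where the ERBB2 gene record also begins, at ERBB2 (89.2 to 96.1), that of PA2G4 at ERBB3 (91.7 to 99.0) and that of ZNRF3 at XBP1 (78.0 to 92.4). In the trefoil cluster, the TFF2 promoter 15315 bp downstream of the TFF1 TSS had a peak in all 9 libraries (median percentile 79.7), and the TFF3 promoter had one only in GSK126 (24.4).

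**Figure D3:**
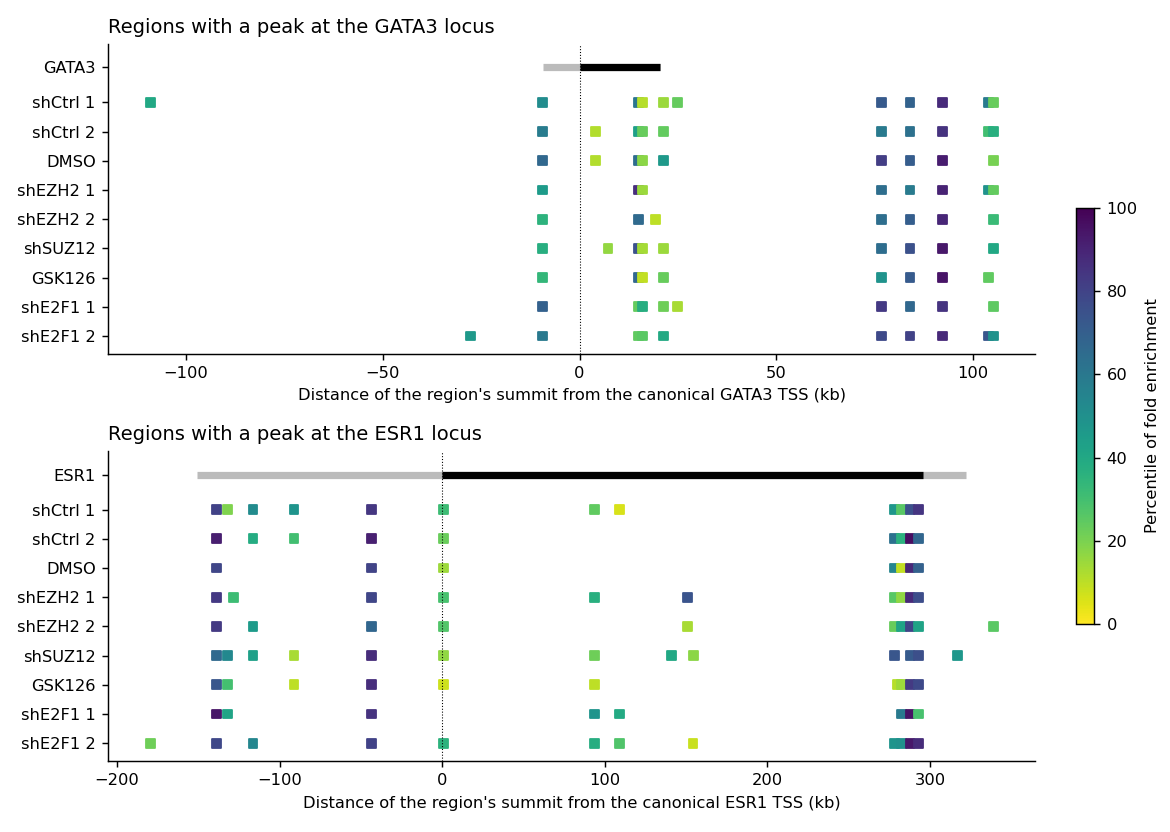
Regions at the GATA3 and ESR1 loci by distance of their summit from the canonical TSS (x axis, kb) in each library (rows), coloured by percentile of fold enrichment. The black bar is the canonical transcript, the grey bar the whole gene record, and the GATA3 regions at 15087 and 15932 bp overlap at this scale. GATA3 has no mark at 0 and ESR1 has a pale one, while both have dark marks far from the TSS in all 9 libraries.

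In the loci, regions gained (a peak in every perturbed library and no control library) were few and mostly low. With shEZH2, 2 of 137 regions were gained (genome background 0.888%) and 16 were lost (7.17%). With shSUZ12, 7 of 134 were gained (6.65%) and 11 lost (8.54%). With GSK126 against DMSO, 16 of 107 were gained (8.61%) and 14 lost (17%). With shE2F1, 4 of 140 were gained (2.88%) and 9 lost (3.77%). Over the 4 PRC2-loss libraries, 0 of 147 were gained (0.0345%) and 2 were lost (0.785%). The members' shares were 1.46% and 11.7% for shEZH2, 5.22% and 8.21% for shSUZ12, 15.0% and 13.1% for GSK126, and 2.86% and 6.43% for shE2F1. The largest excess over the background was that of regions gained with GSK126. It shrank to 6 of 133 (4.51% against 3.62% of all regions) when both shCtrl libraries replaced DMSO as the control, and the share fell below the background, at 7 of 78 (8.97% against 10.7%), when every list was cut to its top 58626 peaks. The share was above the background under the other settings, with 12.4% against 8.57% at −log10 q of at least 5, 18.3% against 9.48% with summit windows, 19.4% against 12.2% with peaks covering at least 0.5 of a region and 18.3% against 8.61% with 50 kb flanks. The share lost with shEZH2 was above that of all regions under every setting, by the least without the first shCtrl library (19.7% against 18.6%). It was 13.3% against 7.44% at −log10 q of at least 5 and 5.66% against 3.87% with equal lists. The values were 9.79% against 6.99% with summit windows and 18.2% against 10.0% with peaks covering at least 0.5 of a region. Without the second shCtrl library they were 20.3% against 16.2%.

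**Figure D4:**
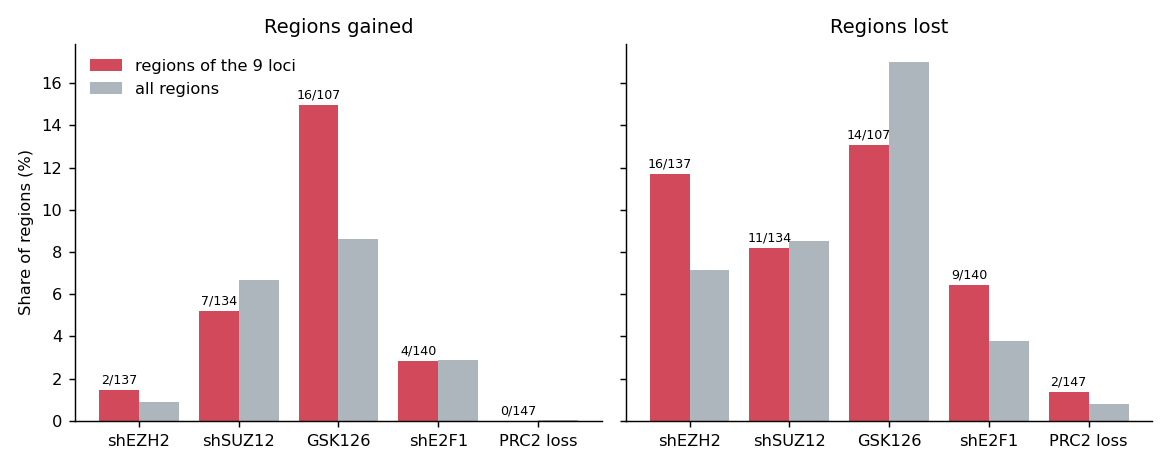
Share of regions gained (left) and lost (right) in each contrast (y axis, %), for the regions of the 9 loci (red, with counts above the bars) and for all regions (grey). The red bar is higher than the grey one by the most for GSK126 gains (15.0% against 8.61%) and next for shEZH2 losses (11.7% against 7.17%), and PRC2 loss as a whole gained 0 of 147 regions.

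Of the 2 regions gained with shEZH2 (1.46% of 137, against 0.888% of all regions), 1 lay in ESR1 and had a peak in no other library. No genome share was taken for that narrower pattern. The ESR1 region is chr6:151958387-151958918, 150870 bp downstream of the TSS in intron 4. It had 26 tags and percentile 73.9 in the first shEZH2 library, and 10 tags and percentile 13.2 in the second. The replicates thus shared its presence and differed widely in its height. The other region gained with shEZH2, chr22:28710526-28710860, lay 89874 bp downstream of the XBP1 TSS in an intron of CHEK2. It had a peak in 7 libraries, among them DMSO at percentile 61.2, and lacked one only in shCtrl, so it was also gained with shSUZ12 and shE2F1, which share those controls. Of the regions gained in shSUZ12, the highest were chr6:152124545-152124754 (47.2) and chr6:151948429-151948724 (39.9), both in the ESR1 gene record and in no other library. In shE2F1, chr12:56143293-56143531 near ERBB3 (29.7 and 36.5) and chr21:42288311-42288587 near TFF1 (39.4 and 21.3) were present in no other library.

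Among regions gained with GSK126, the highest were chr12:56060015-56060318, 19978 bp upstream of ERBB3, chr6:151675801-151676257, 131805 bp upstream of the canonical ESR1 TSS, and chr10:8158336-8158808, 103987 bp downstream of the GATA3 TSS. Their percentiles in GSK126 were 38.3, 29.8 and 24.4, and each had a peak in at least 1 shCtrl library. The FOXA1 flank region in TTC6 and the TFF3 promoter tied with the last at 24.4 and had no peak in shCtrl. Of the regions lost, the GSK126 library lacked the ESR1 intronic region chr6:152085551-152086017 (54.3 in DMSO) and the TFF1 flank region chr21:42381414-42381731 (47.4 in DMSO), which shSUZ12 also lacked. The region chr22:28855671-28856132, 55191 bp upstream of XBP1, was present at 19.3 and 38.6 in shCtrl and 30.5 in DMSO and absent from all 4 PRC2-loss libraries, as was chr17:39738586-39738854 at the GRB7 promoter near ERBB2, whose percentiles in the controls were only 2.50 to 5.52. The shE2F1 libraries had no peak at chr22:28829400-28829684, 29004 bp upstream of XBP1 (48.4 and 49.3 in shCtrl), which both shEZH2 libraries also lacked, at chr12:56072547-56073076 upstream of ERBB3, or at chr6:151716177-151717202 in the upstream part of the ESR1 gene record. The DMSO control also had no peak at any of these regions lost with shE2F1. With shEZH2, chr21:42336091-42336463 (52.3 and 57.7 in shCtrl) and chr21:42262777-42263059 (48.4 and 55.8), both downstream of TFF1, were lost. The second of these was also lost with shSUZ12, as was the GATA3 flank region gained with GSK126 (58.9 and 30.3 in shCtrl). DMSO likewise had no peak at that second TFF1 region or at the GATA3 flank region.

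The 2 GATA3 regions that were open in every library differed between groups in height rather than presence. The downstream one, chr10:8069486-8069961, had its summit in intron 5 of 6 exons. It stood at percentile 60.7 and 44 in shCtrl, 64.7 in DMSO, 87.0 and 65.8 in shEZH2, 74.7 in shSUZ12, 66.5 in GSK126, and 23.4 and 24.3 in shE2F1. All 4 PRC2-loss libraries lay above all 3 control libraries, GSK126 only just above DMSO, and both shE2F1 libraries lay below every other library. The upstream one stood at 51.8 and 58.4 in shCtrl, 66.7 in DMSO, 45.5 and 35.7 in shEZH2, 37.1 in shSUZ12, 33.7 in GSK126, and 69.3 and 59.4 in shE2F1, so that the 4 PRC2-loss libraries lay below all 3 control libraries and both shE2F1 libraries lay above shCtrl, with 1 of them below DMSO. Ranked by −log10 p, the downstream region had GSK126 (67.7) below both DMSO (69.2) and the first shCtrl library (72.1), and the upstream region no longer had shE2F1 (57.7 and 56.6) above shCtrl (59.0 and 61.7). When lists of equal length were ranked, the downstream region kept its order, at 60.7 to 84.0 in the PRC2-loss libraries and 21.9 to 55.1 in the controls, whereas the upstream region lost it: the second shEZH2 library (35.7) lay above the first shCtrl library (35.4), and the second shE2F1 library (40.5) below the second shCtrl library (42.1).

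**Figure D5:**
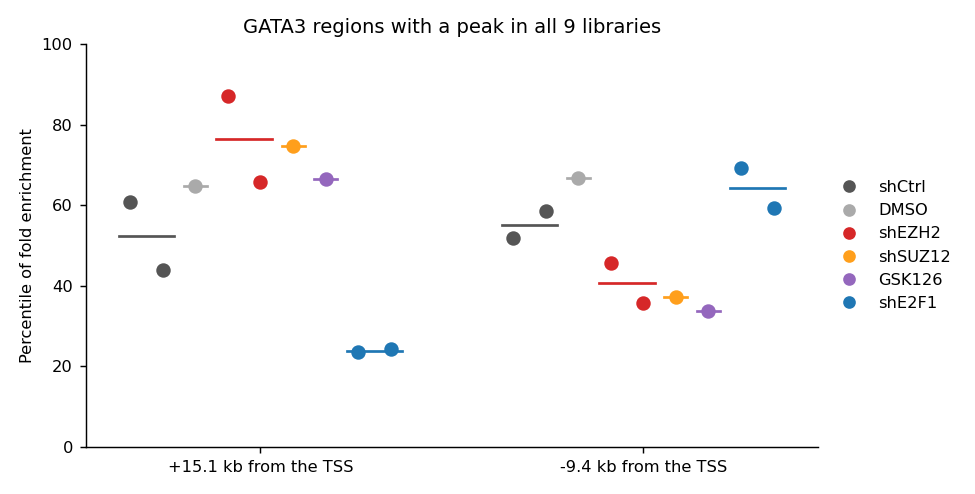
Percentile of fold enrichment (y axis) of the 2 regions of the GATA3 gene record with a peak in all 9 libraries, by their distance from the canonical TSS; points are libraries and short lines group means. At 15.1 kb the shEZH2 mean was 76.4 and the shE2F1 mean 23.9, and at −9.4 kb they were 40.6 and 64.3.

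These differences were looked for after the heights had been seen. Of the 56 regions in the loci with a peak in all 7 PRC2-loss and control libraries, the downstream GATA3 region was the only one above every control (1 of 56, background 1.63%), and 4 were below, among them the upstream GATA3 region (background 6.06%). In both shEZH2 libraries, 8 of 62 regions lay above shCtrl (11.6%) and 14 below (31.6%). In both shE2F1 libraries, 10 of 59 lay above (16.9%) and 7 below (22.6%). In the loci the shares that lay below were 22.6% for shEZH2 and 11.9% for shE2F1, both under the genome background, and the shares that lay above were close to it.

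The reference sequence under 3 intragenic peaks of GATA3 and ESR1 described above is shown. Each is the 201 bases of GRCh38 around a summit on the plus strand, and capitals mark exact matches, on either strand, to the motifs searched: the palindromic estrogen response element, TGTTTAC for forkhead factors, AGATAA for GATA factors, TGANTCA for AP-1, GCCNNNGGC for TFAP2 and GGCGGGAA for E2F. The first is the downstream GATA3 region (chr10:8069675-8069875), the second the ESR1 region gained with shEZH2 (chr6:151958452-151958652) and the third the tallest ESR1 region (chr6:152095244-152095444).
GATA3 intron 5: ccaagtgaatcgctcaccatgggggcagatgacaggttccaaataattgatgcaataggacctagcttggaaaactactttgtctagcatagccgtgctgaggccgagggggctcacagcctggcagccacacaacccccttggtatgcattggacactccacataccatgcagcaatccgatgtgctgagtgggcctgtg
ESR1 intron 4: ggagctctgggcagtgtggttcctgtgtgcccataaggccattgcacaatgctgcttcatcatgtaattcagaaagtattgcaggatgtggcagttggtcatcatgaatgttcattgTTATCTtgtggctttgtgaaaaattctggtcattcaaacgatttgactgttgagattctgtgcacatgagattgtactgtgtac
ESR1 intron 7: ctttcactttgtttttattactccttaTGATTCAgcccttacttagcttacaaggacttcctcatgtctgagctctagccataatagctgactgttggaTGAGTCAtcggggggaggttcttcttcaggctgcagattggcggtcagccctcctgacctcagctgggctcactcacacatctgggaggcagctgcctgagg

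The GATA3 sequence held none of the 6 motifs, the ESR1 sequence of intron 4 held 1 GATA match, and that of intron 7 held 2 AP-1 matches. Over 153 regions of the loci (without the promoter regions of ERBB2, ERBB3 and TFF1), 0 windows of 201 bases held the estrogen response element, against 0.0337% of all regions. Of the same windows 2 held the forkhead motif (1.31% against 3.01%), 10 the GATA motif (6.54% against 8.82%), 49 the AP-1 motif (32.0% against 31.3%), 15 the TFAP2 motif (9.80% against 11.1%) and 2 the E2F motif (1.31% against 0.799%). In the 34 regions of the gene bodies, 6 windows held the GATA motif (17.6%) and 12 the AP-1 motif (35.3%). All 6 of these GATA windows were at ESR1, which supplied 18 of the 34 regions. In the 6 matched promoters the only match was 1 TFAP2 motif at GATA3, which 29.9% of the 14570 matched promoters also held. The match shares of the loci were close to those of all regions for AP-1 and TFAP2, and the other motifs were found in too few windows for a share to be read.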

How the data were processed

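ATAC-seq peaks were deposited as 1 list per library. The authors aligned reads with Bowtie2 to GRCh38 (hg38), corrected read ends for the cut of Tn5 and made the calls separately for every library. The peak caller is not given in the sources used here. The deposited values of each peak were a fold enrichment (a ratio to local background), the −log10 of p and of q, and a score. Whole tags and local backgrounds were recovered from fold enrichment and −log10 p for 100% of peaks, within 0.002 in −log10 p.

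Promoters and loci came from GENCODE, and peaks that overlapped by 1 bp were merged into regions. A promoter or region was opened or gained when a peak stood in every perturbed library and in none of the controls, and closed or lost in the reverse case. The knockdowns were compared with shCtrl and GSK126 with DMSO. All members were named, with the promoter and tallest region of each locus, up to 3 gained and 3 lost regions per contrast, and wider-list genes closed everywhere or changed in a contrast. TFF2, SLC39A6, EPCAM, the FOXA1 region in every library and the GATA3 comparison were singled out after their values were seen. One gene of the wider luminal list is not reported here. The members and lists were chosen with earlier results of these data known. Replicate numbers follow accession order and pair nothing: over 12067 promoters the deviations of same-numbered libraries correlated by 0.0540 (shCtrl and shEZH2) and 0.0588 (shCtrl and shE2F1). Calls were tested on simulated lists. Python 3.11.15, numpy 2.4.6, pandas 2.3.3 and scipy 1.17.1 were used.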

Additional observations from a re-analysis of the deposited data

Results flagged for a closer look

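In 4 of the 55 regions of the loci that had a peak in all shCtrl, shEZH2 and shE2F1 libraries (7.27%, against 4.69% of 42671 such regions in the genome), both shEZH2 libraries lay on one side of both shCtrl libraries and both shE2F1 libraries on the other. The 2 knockdowns share the shCtrl libraries, and the difference between them was not tested. The percentile of the GATA3 region 15.1 kb downstream of the TSS was 52.5 points higher in shEZH2 than in shE2F1 (76.4 ± 15.0 against 23.9 ± 0.630, SD, n = 2; shCtrl 52.3 ± 11.9). That of the GATA3 region 9.4 kb upstream was lower in shEZH2, with a difference of −23.7 points (40.6 ± 6.93 against 64.3 ± 7.02; shCtrl 55.1 ± 4.71). The region 30541 bp downstream of the ERBB2 TSS, at the MIEN1 promoter, differed by 14.4 points (92.7 ± 0.0323 in shEZH2 against 78.3 ± 1.90 in shE2F1; shCtrl 88.5 ± 3.55). The region 67585 bp upstream of the TFF1 TSS, in an intron of UBASH3A, differed by −32.9 points (63.3 ± 12.1 against 96.3 ± 0.880; shCtrl 80.0 ± 10.9). Ranked by −log10 p, the difference was 3.96 points at ERBB2 and −12.9 at the upstream GATA3 region, where shE2F1 (57.7 and 56.6) no longer lay above shCtrl (59.0 and 61.7). By that measure, shEZH2 (95.7 and 92.1) overlapped shCtrl (91.8 and 93.6) at ERBB2, and the first shEZH2 library (54.4) lay above the first shCtrl library (51.5) at TFF1, as it did with lists of equal length (65.4 against 62.8).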

How the results depend on the processing

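Peak calls near the threshold set most of the limits, since read counts per region were not used here, and depth differs between libraries. GATA3 had no promoter peak under any setting except any annotated TSS, where 0 members had none, and ERBB2, ERBB3, TFF1 and XBP1 kept theirs in every library under all settings tried. With 58626 peaks kept per library, ESR1 was open in 1 library, PGR in 2, FOXA1 in 4 and SPDEF in 3. PGR was then not opened by GSK126 (0 members), nor was it at −log10 q of at least 5, with 2 kb windows or with any annotated TSS (0 each), and with 500 bp windows GSK126 opened SPDEF in place of PGR. Under the equal lists SPDEF was opened by shSUZ12 (1) and closed by GSK126 (1), and 0 members were closed by shSUZ12 or shE2F1; at −log10 q of at least 5, GSK126 closed 2 (ESR1 and SPDEF). By −log10 p, 3 promoters lay lower in shEZH2. With equal lists 1 lay higher in shEZH2 and 0 lay higher or lower in shE2F1, and with 500 bp windows 1 lay higher in shE2F1.

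The share of all regions called under the same setting is given in brackets. With equal lists, shEZH2 gained 1 of 106 regions (2.67%) and lost 6 (3.87%), and shSUZ12 lost 6 of 98 (6.58%). GSK126 gained 7 of 78 (10.7%) and lost 9 (11.6%), shE2F1 gained 2 of 105 (3.61%) and PRC2 loss lost 0 of 113 (0.325%). At −log10 q of at least 5, shEZH2 gained 1 of 128 (0.878%). The 2 regions named above as gained with shEZH2 did not pass this cutoff in the second shEZH2 library. Their −log10 q there was 4.33 at ESR1 and 2.92 in CHEK2. With summit windows, shSUZ12 gained 11 of 141 (6.84%) and PRC2 loss 1 of 155 (0.0610%), near ERBB3. With peaks covering at least 0.5 of a region, GSK126 lost 23 of 98 (23.7%). With 50 kb flanks, shEZH2 gained 1 of 94 (0.888%) and shE2F1 gained 2 of 95 (2.88%). At the same flanks shSUZ12 lost 7 of 91 (8.54%), GSK126 lost 7 of 71 (17.0%) and PRC2 loss lost 1 of 103 (0.785%). Against shCtrl, GSK126 gained 6 of 133 (3.62%). The cause was not tested.

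Leaving out 1 replicate moved the promoters closed to 0 to 1 for shEZH2 (SPDEF without replicate 1, PGR without replicate 2) and 1 to 3 for shE2F1 (also ESR1 and FOXA1 without replicate 2). Promoters higher in shEZH2 ranged from 0 to 3 and lower from 0 to 3, and lower in shE2F1 from 1 to 3. Regions gained ranged from 2 to 7 for shEZH2, 7 to 14 for shSUZ12, 4 to 11 for shE2F1 and 0 to 1 for PRC2 loss, and regions lost from 16 to 29, 11 to 23 and 9 to 30 for the first 3. The highest counts came without shEZH2 replicate 2 (gained) or 1 (lost), without shCtrl replicate 1 for shSUZ12, and without shE2F1 replicate 1 (gained) or 2 (lost). The share of all regions called moved as well. For shEZH2 the highest counts were 7 of 134 gained (6.84% of all regions) and 29 of 132 lost (17.2%). For shSUZ12 they were 14 of 123 (10.2%) and 23 of 123 (20.7%), and for shE2F1 11 of 138 (13.0%) and 30 of 133 (12.8%). PRC2 loss gained 1 of 140 (0.127%) without shCtrl replicate 2 and 1 of 144 (0.125%) without shEZH2 replicate 2. No paired analysis was possible because replicate numbers were given in accession order and no result comes from a test.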
